A study of Mus musculus with 6 samples.

Results

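The ErbB receptor tyrosine kinases Egfr, Erbb2 and Erbb3, the inhibitor Lrig1 and the 6 EGFR ligands Areg, Ereg, Hbegf, Tgfa, Btc and Epgn were followed in cells sorted as hair follicle stem cells (HFSCs). They are 10 of the 56941 rows of the count table, chosen by gene name. The table held 9 of them under their names. The row that carries the Ensembl identifier of Areg (ENSMUSG00000029378) is named Mcub there, as is a second row, and it was taken as Areg because the GENCODE annotation pairs that identifier with Areg and RefSeq lists Mcub among the synonyms of Areg. All 10 passed the filter on low counts.

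The libraries were made from total RNA of CD34+/α6-integrin+ cells sorted from the dorsal skin of female mice at postnatal day (PD) 68, in 3 biological replicates for each of the labels WT and Dab2-cKO. The labels do not say whether a replicate was 1 animal or a pool. Mice of both genotypes were Dab2 fl/fl, of the strain B6;129S4-Dab2tm1Cpr/J, and received tamoxifen at 75 mg per kg per day on 5 days. The Dab2-cKO mice also carried K14CreER, a tamoxifen-dependent Cre driven by the K14 promoter of basal keratinocytes and the outer root sheath, and the WT mice did not. The deletion is therefore limited to K14-expressing epithelium, and the WT group does not control for Cre itself.

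Total counts lay between 7040032 and 11696457 per library. A count of 0 would allow a share of up to 2.56e-05% to 4.26e-05%, which covers counting error only. Dab2, the targeted gene, had a normalized count of 309 to 338 in the libraries labelled WT and of 1300.2 to 1434 in those labelled Dab2-cKO (log2 fold change 2.08, SE 0.08, adjusted p = 3.04e-34 by edgeR's quasi-likelihood test), against the direction of a deletion. A normalized count is a count scaled to the mean effective library size, and as a sum over the whole gene it does not show whether the floxed exons are present. Groups are therefore named as labelled, and an exchange of the labels would turn every direction given here. The defining bulge markers Cd34 and Krt15 were detected in all libraries and were higher in those labelled Dab2-cKO (log2 fold change 1.80 and 0.84, edgeR adjusted p = 9.12e-32 and 3.87e-17). They do not stand for the whole bulge list: of its 12 markers, 6 were higher, 4 were lower and 2 did not pass. The marker lists of other cells had summed counts in every library, and no gene of any marker list was at or under 3 counts in all 6. That is a low bar, and it does not show that each gene or its cells were present in every library. The summed normalized count of 15 hair shaft and inner root sheath markers ranged from 243130 to 291398 in WT and from 3911 to 4066 in Dab2-cKO, and all 15 were lower. The 9 fibroblast markers summed to 102154 to 123528 and to 356337 to 376121, in that order, and all 9 were higher. The libraries thus also held RNA of cells other than HFSCs. All values below are those of the sorted libraries as a whole and not of HFSCs alone.

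EGFR and its relatives are cell surface receptors that pair when a ligand binds and then phosphorylate each other, which recruits adaptors and starts the RAS to ERK and the PI3-kinase to AKT cascades. The ligands are made as membrane-anchored precursors and are released by metalloproteases. In skin, EGFR signaling keeps basal keratinocytes dividing and is needed for normal hair follicle shape and cycling, and mice with too little TGFα or a weak EGFR have wavy hair. Lrig1 is a leucine-rich repeat membrane protein that restrains ErbB receptors and marks a stem cell pool of the upper follicle.

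All 3 receptors, Lrig1 and the ligands Tgfa and Areg were lower in the libraries labelled Dab2-cKO, whereas the ligands Epgn, Btc and Ereg were higher. Hbegf alone did not pass the test. Thus 9 of the 10 genes passed an adjusted p of 0.05, 6 lower and 3 higher, where 28.2% of the 32149 genes tested passed, 11.5% lower and 16.8% higher. Among the 10846 genes whose mean normalized count reached 100, a level that Areg and Epgn did not reach, 60.5% passed. The same 9 genes did not overlap between the genotypes, as was so for 38.3% of all genes tested, 20.6% with Dab2-cKO above WT and 17.7% with it below. Over all genes the split of 5387 higher and 3682 lower became 4281 and 5561 with upper-quartile scaling and 2686 and 11168 with library size only. Leaving out any 1 library kept the counts at 6 lower and 3 higher, while a limit of 1.5-fold left 7 of the genes, 4 lower and 3 higher, without Erbb2 and Lrig1. In bulk RNA, fewer cells that express a gene and less of its RNA per cell cannot be told apart.

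**Figure D1:**
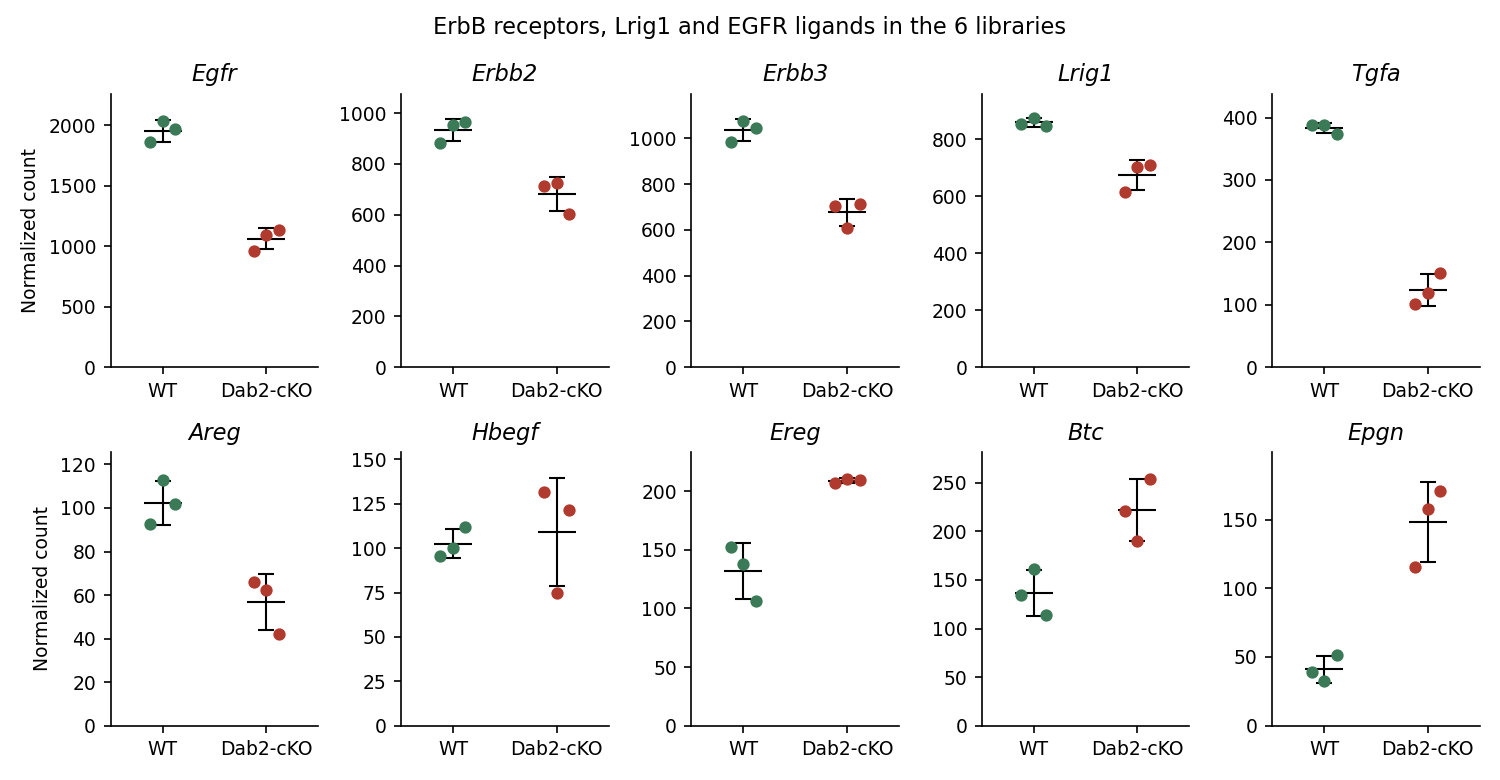
Normalized count (y axis, each panel from 0 with its own scale) of the 10 genes in the 3 libraries labelled WT (green) and the 3 labelled Dab2-cKO (red). Points are libraries, the horizontal line is the mean and the bars are 1 SD; only the points of Hbegf overlap between the genotypes.

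The letters before the start sites are shown for the gene with the largest rise (Epgn) and the gene with the largest fall (Tgfa). Areg, which fell and is separated from Epgn by Ereg on chromosome 5, is shown as well. The letters are the 250 bases before the start on the plus strand of GRCm38.p6 as RefSeq gives them, while all other coordinates are of GRCm39. Capitals mark matches to TATAAA and to the GC box GGGCGG on either strand.
Epgn, chr5:91027267-91027516: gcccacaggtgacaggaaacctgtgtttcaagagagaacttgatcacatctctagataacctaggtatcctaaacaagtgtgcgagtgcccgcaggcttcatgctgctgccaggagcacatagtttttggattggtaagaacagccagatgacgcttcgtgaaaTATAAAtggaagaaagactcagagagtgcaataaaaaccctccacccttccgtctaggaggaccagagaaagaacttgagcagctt
Areg, chr5:91139349-91139598: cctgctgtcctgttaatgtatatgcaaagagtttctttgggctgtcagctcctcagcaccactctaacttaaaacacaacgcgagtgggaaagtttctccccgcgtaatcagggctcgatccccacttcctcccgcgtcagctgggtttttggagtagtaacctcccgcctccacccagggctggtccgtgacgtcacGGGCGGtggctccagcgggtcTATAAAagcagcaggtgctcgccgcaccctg
Tgfa, chr6:86194972-86195221: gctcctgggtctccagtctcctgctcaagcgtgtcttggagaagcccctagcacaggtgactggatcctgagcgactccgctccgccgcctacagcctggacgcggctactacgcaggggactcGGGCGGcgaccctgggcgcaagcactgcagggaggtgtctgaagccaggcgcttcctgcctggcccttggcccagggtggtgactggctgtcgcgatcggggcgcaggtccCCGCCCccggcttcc
The promoter table held 7 of the 10 genes, without Erbb3, Ereg and Hbegf. In windows of 300 bases, which add the 50 bases after the start, Epgn had 1 TATAAA and 1 TCF/LEF match (CTTTGAT or CTTTGAA, in those 50 bases). Areg had 1 TATAAA and 2 GC boxes, Tgfa and Lrig1 had 2 GC boxes each, Egfr had 1, and Btc and Erbb2 had none of these. No window held the AP-1 letters TGANTCA. Over 32817 promoters of the same length, 13.621% held TATAAA, 35.631% the GC box, 8.654% the TCF/LEF letters and 7.813% the AP-1 letters, none of which overlapped another in the 3 windows shown. A match is a description of letters only.

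Egfr (ENSMUSG00000020122, chromosome 11, 16702198 to 16868158, plus strand) encodes the receptor that binds all 6 ligands. The WT libraries held 1856, 2029 and 1969 normalized counts of it (replicates 1 to 3, as in all such series of values), and the Dab2-cKO libraries held 963, 1091 and 1129. Every Dab2-cKO library was below every WT library, by a margin wider than the spread within either genotype. The mean was 1951 ± 88.0 (SD, n = 3) against 1061 ± 86.9 (SD, n = 3), a ratio of WT to Dab2-cKO of 1.84. The log2 fold change (Dab2-cKO over WT throughout) was -0.88 (SE 0.07, edgeR adjusted p = 3.37e-17), and it stayed between -0.95 and -0.83 with each library left out in turn.

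Erbb3 (ENSMUSG00000018166, chromosome 10, 128403392 to 128425811, minus strand) encodes the receptor for neuregulins, which has little kinase activity of its own and signals through its partners to PI3-kinase. The WT libraries had 983, 1077 and 1048 normalized counts, and those labelled Dab2-cKO had 706, 609 and 714, again without overlap. The mean fell from 1036 ± 48.0 to 676 ± 58.6 (SD, n = 3 each; log2 fold change -0.62, SE 0.08, edgeR adjusted p = 3.76e-10). Erbb3 is also used by melanocyte precursors and Schwann cells. Of the 9 melanocyte markers, 8 were lower (summed normalized count 3809 to 4161 in WT and 1388 to 1433 in Dab2-cKO), and of the 8 Schwann cell markers 5 were higher (1057 to 1195 and 2276 to 2439). Their part in the change of Erbb3 was not tested.

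Erbb2 (ENSMUSG00000062312, chromosome 11, 98303203 to 98328542, plus strand) encodes the receptor without a known ligand, the preferred partner of the others. Its normalized count was 882, 952 and 966 in the WT libraries and 711, 725 and 603 in the Dab2-cKO libraries. The genotypes did not overlap, with the lowest WT library well above the highest Dab2-cKO library. The mean fell from 933 ± 45.1 to 679.6 ± 67.0 (SD, n = 3 each; log2 fold change -0.46, SE 0.08, edgeR adjusted p = 1.45e-06). The fall was the smallest of the 3 receptors and amounted to a ratio of WT to Dab2-cKO of 1.37.

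Lrig1 (ENSMUSG00000030029, chromosome 6, 94581510 to 94677242, minus strand) had the smallest change of the 9 genes that passed. In WT its normalized count was 854, 876 and 845, and in Dab2-cKO it was 614, 703 and 707. The WT libraries varied by 1.84% (CV) and the Dab2-cKO libraries by 7.80%, and they did not overlap. The mean fell from 858 ± 15.8 to 675 ± 52.7 (SD, n = 3 each; log2 fold change -0.35, SE 0.08, edgeR adjusted p = 0.000179). Of its exon bases, 23.3% are shared with Slc25a26 on the opposite strand. The strand setting of the counting is not given in the sources used here, so reads of that stretch cannot be assigned with certainty.

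Tgfa (ENSMUSG00000029999, chromosome 6, 86172041 to 86252728, plus strand) encodes TGFα, a ligand whose shortage gives mice wavy hair, and had the largest fall. It was counted at 387, 388 and 373 (normalized) in WT and at 101, 119 and 151 in Dab2-cKO. The WT libraries lay within a narrow band, and the highest Dab2-cKO library was far below it. The mean fell from 383 ± 8.35 to 124 ± 25.4 (SD, n = 3 each), a ratio of 3.10 and a log2 fold change of -1.64 (SE 0.12, edgeR adjusted p = 6.28e-19).

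Areg (chromosome 5, 91287451 to 91296291, plus strand) encodes amphiregulin, a growth factor that keratinocytes make for themselves. In WT the normalized count was 92.4, 113 and 102, and in Dab2-cKO it was 65.8, 62.1 and 41.9. The genotypes did not overlap, though Dab2-cKO replicate 3 lay below the other two. The mean fell from 102 ± 10.2 to 56.6 ± 12.8 (SD, n = 3 each; log2 fold change -0.85, SE 0.20, edgeR adjusted p = 0.000355). With each library left out it stayed between -0.996 and -0.70, on raw counts of 38 to 125 per library.

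Epgn (ENSMUSG00000035020, chromosome 5, 91175323 to 91183074, plus strand) encodes epigen, a broad but low-affinity EGFR ligand, and rose most. The WT libraries had normalized counts of 39.0, 32.5 and 51.3 and the Dab2-cKO libraries of 115, 158 and 171, so that the lowest Dab2-cKO library was above the highest WT library. The mean rose from 40.9 ± 9.53 to 148 ± 29.1 (SD, n = 3 each), a ratio of 3.62. Its log2 fold change was 1.84 (SE 0.20, edgeR adjusted p = 1.48e-12), from raw counts of 35 to 60 against 121 to 155.

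Btc (ENSMUSG00000082361, chromosome 5, 91505120 to 91550883, minus strand) encodes betacellulin, which binds both EGFR and ERBB4. Its normalized count was 135, 162 and 114 in the WT libraries and 221, 189.9 and 254 in the Dab2-cKO libraries, without overlap. The mean rose from 137 ± 24.04 to 222 ± 32.0 (SD, n = 3 each; log2 fold change 0.70, SE 0.14, edgeR adjusted p = 2.28e-05). Ereg (ENSMUSG00000029377, chromosome 5, 91222157 to 91241505, plus strand) encodes epiregulin, a ligand of the same receptor pair. Normalized counts of 153, 138 and 106 in WT stood against 207, 211 and 209.7 in Dab2-cKO. The spread in Dab2-cKO was below the counting error of the raw counts (217, 183 and 190), so it is not read as a trait of Ereg. The mean rose from 132 ± 23.9 to 209 ± 1.90 (SD, n = 3 each; log2 fold change 0.67, SE 0.14, edgeR adjusted p = 4.88e-05). Both calls depended on the scaling. With library size only, which moved the median of all genes to -0.45 from -0.02, the log2 fold change was 0.27 for Btc (edgeR adjusted p = 0.0942) and 0.24 for Ereg (0.151), and 1 of the 10 genes, Epgn, was higher.

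Hbegf (ENSMUSG00000024486, chromosome 18, 36637980 to 36649677, minus strand) encodes heparin-binding EGF, a ligand of wound healing. Of the exon bases of Hbegf, 16.3% are shared with Gm41698 on the opposite strand, so the limit given for Lrig1 holds here too. The normalized count of Hbegf was 95.8, 100.2 and 112 in the WT libraries and 132, 74.8 and 121 in the Dab2-cKO libraries. The genotypes overlapped, since the second Dab2-cKO library was the lowest of all 6 and the first the highest. The mean was 103 ± 8.35 and 109 ± 30.3 (SD, n = 3 each; log2 fold change 0.10, SE 0.17, edgeR adjusted p = 0.767), and its SE gave a 95% interval of the log2 fold change from -0.25 to 0.44. The sign turned under other scalings and without Dab2-cKO replicate 1 or 3.

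The exact 2-sided permutation test cannot pass 0.05 in this design and gave p = 0.1, the smallest that 3 against 3 libraries allow, for each of the 9 genes without overlap, and 0.9 for Hbegf. The adjusted p-values come from edgeR's model, which draws on the spread across all genes. Scaling shifted all 10 genes together. Relative to the median of all genes tested, the log2 fold change of Egfr was -0.86 with each of TMM, upper-quartile scaling, library size only and DESeq2. That sameness is fixed by construction, since a change of scaling moves every gene by nearly the same amount, so it is no test of the result. With the filter at a mean count of 50, the value relative to the median was -0.95.

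**Figure D2:**
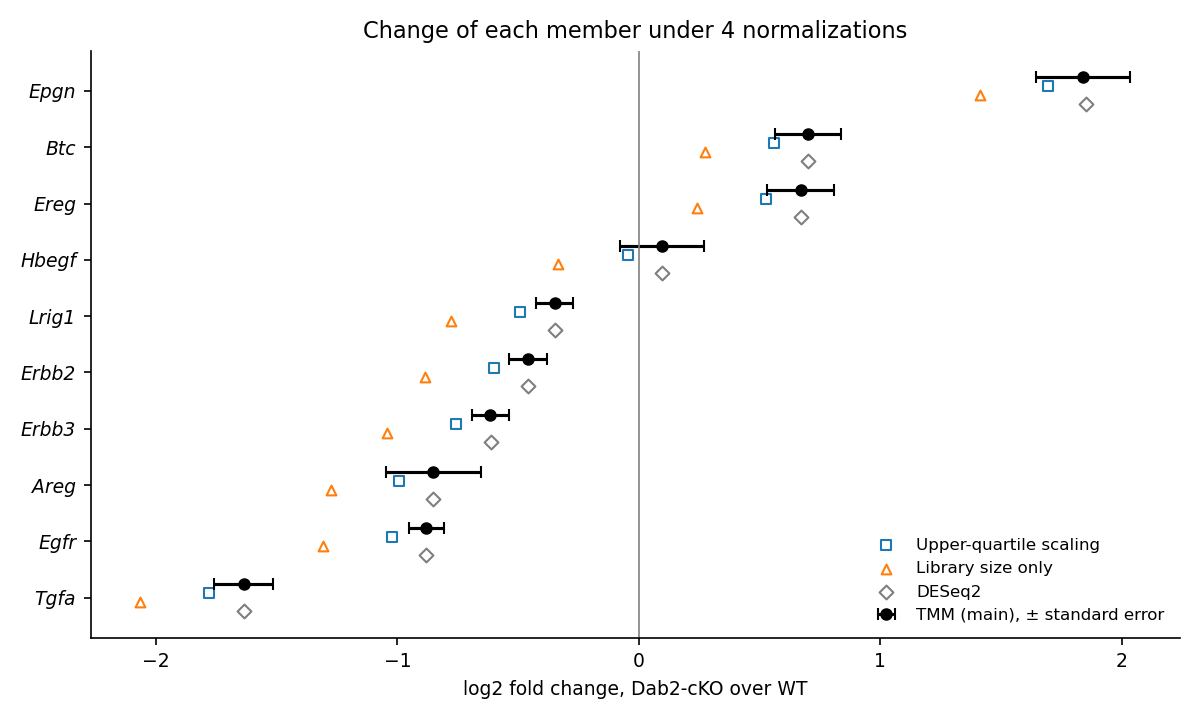
Fitted log2 fold change, Dab2-cKO against WT (x axis), for each of the 10 genes (y axis) under TMM with its standard error (black), upper-quartile scaling (blue squares), library size only (orange triangles) and DESeq2 (grey diamonds). Scaling by library size moves all genes to the left, and Hbegf is the gene whose sign depends on it.

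Levels were compared between genes as normalized counts per kb of exon. In the WT libraries the receptors led, with Erbb2 at 172 ± 8.32, Egfr at 169 ± 7.61 and Erbb3 at 164 ± 7.61 per kb (SD, n = 3), and these overlapped. Lrig1 (135 ± 2.49), Areg (83.7 ± 8.37) and Tgfa (56.0 ± 1.22) followed, each apart from its neighbours. Btc (30.0), Ereg (29.7), Epgn (22.6) and Hbegf (20.1 per kb) came last, and neighbours among them did not differ beyond their spread. In the Dab2-cKO libraries the order was Erbb2 (125 per kb), Erbb3 (107), Lrig1 (106), Egfr (91.8) and Epgn (81.9), each overlapping the next. Btc (48.7), Ereg (47.0) and Areg (46.3 per kb) formed a second overlapping group below them, and Hbegf (21.4) and Tgfa (18.1) stood last, apart from them. These places depend on the exon length used. As a floor, 1561 genes of the chemosensory receptor families, most of which have no known use in skin, had a median of 4.89 per kb and a 95th percentile of 11.7. All 10 genes were above that percentile in every library, the lowest being Hbegf at 14.6 per kb in Dab2-cKO replicate 2.

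The summed level of the 3 receptors was 479, 522 and 515 normalized counts per kb in the WT libraries and 326, 325 and 322 in the Dab2-cKO libraries. The summed level of the 6 ligands was 236, 253 and 237 per kb in the WT libraries and 253, 259 and 278 in the Dab2-cKO libraries, so that the highest WT value met the lowest Dab2-cKO value. Under TMM scaling, the receptors thus stood lower as a sum while the ligands differed mainly in their make-up. The sums were not computed under the other scalings. With library size only, the log2 fold change of every ligand moved down, so the near-equal ligand sums depend on the scaling. These sums are a description, with no test.

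Each ligand was then expressed as a share of the summed ligand level per kb. Epgn took 9.12%, 7.10% and 11.98% in the WT libraries and 25.2%, 33.7% and 34.1% in the Dab2-cKO libraries. Tgfa took 23.97%, 22.4% and 23.1% in the WT libraries and 5.84%, 6.69% and 7.96% in the Dab2-cKO libraries. Areg, the leading ligand in WT, took 32.0%, 36.5% and 35.1% there and 21.3%, 19.6% and 12.4% in Dab2-cKO. None of these 3 shares overlapped between the genotypes. The mean share of Btc was 12.4% in WT and 18.5% in Dab2-cKO, that of Ereg 12.3% and 17.9%, and that of Hbegf 8.30% and 8.12%. Which ligand led depended on the length used: without division by exon length, Tgfa led in WT with 42.7% and Areg had 11.4%, and in Dab2-cKO Btc led with 25.5% and Epgn had 17.0%. The Epgn share was higher and the Tgfa and Areg shares were lower in Dab2-cKO with every length tried. Among the receptors Egfr took 33.4% ± 0.29 in the WT libraries against 28.3% ± 2.49 in the Dab2-cKO libraries (SD, n = 3). Erbb2 took 34.1% ± 0.51 against 38.6% ± 3.60, and Erbb3 took 32.5% ± 0.23 against 33.1% ± 2.91. The shares of Erbb2 and Erbb3 overlapped between the genotypes, with Erbb2 at 34.5% in Dab2-cKO replicate 3.

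**Figure D3:**
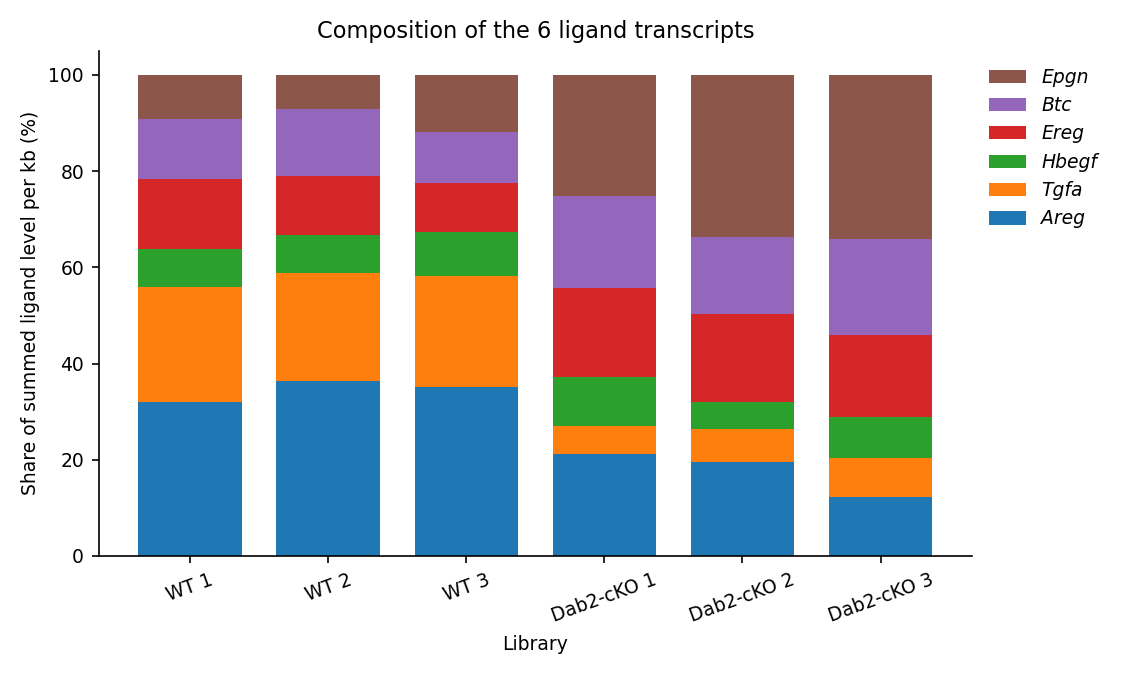
Share in percent (y axis, from 0 to 100) of each of the 6 ligands in their summed normalized count per kb of exon, in each of the 6 libraries (x axis). Areg and Tgfa fill the lower part of the WT bars, and Epgn takes 25.2% to 34.1% of the Dab2-cKO bars.

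4 of the ligand genes lie side by side on chromosome 5, in the order Epgn, Ereg, Areg and Btc over 375.561 kb, with gaps of 39082, 45945 and 208828 bases. Epgn, Ereg and Btc rose, while Areg, which lies between Ereg and Btc, fell. The window from 200 kb before Epgn to 200 kb after Btc, which was chosen after seeing the data, held 14 genes of the table, of which 9 passed the filter. Of the 5 that were not ligands of EGFR, 0 were called by edgeR. Cxcl1, a neutrophil chemokine, had a log2 fold change of 1.05 (edgeR adjusted p = 0.0945) at 6 to 20 counts per library. Mthfd2l, a mitochondrial folate enzyme next to Epgn, had -0.13 (0.598), and Parm1 beyond Btc had -0.22 (0.304). Ereg shares 3.89% of its exon bases with Gm19610 on the opposite strand.

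**Figure D4:**
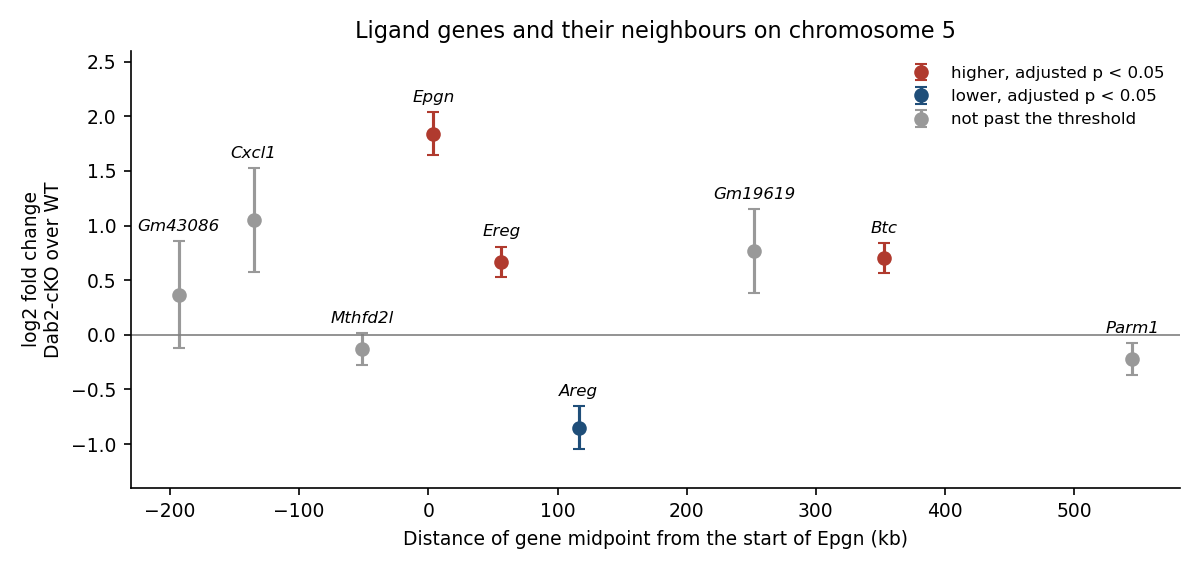
Fitted log2 fold change, Dab2-cKO against WT, with its standard error (y axis) for the 9 genes tested in the chromosome 5 window, placed by the distance of their midpoint from the start of Epgn in kb (x axis). Epgn, Ereg and Btc are above 0 (red), Areg is below (blue), and the 5 other genes did not pass the threshold (grey).

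The lists that follow are read against the 28.2% of all genes, and 60.5% of the abundant genes, that passed, and no list was tested as a set. Of 8 other members of the family, all tested, 2 were higher, 1 was lower and 5 did not pass, with a median log2 fold change of 0.09 against -0.02 over all genes tested. With upper-quartile scaling 1 was higher and 1 lower, and with library size only 0 and 4. Egf, the founding ligand, had 213, 165 and 174 normalized counts in the WT libraries and 235, 245 and 248 in the Dab2-cKO libraries (log2 fold change 0.40, SE 0.12, edgeR adjusted p = 0.00688), a rise that did not hold with upper-quartile scaling (0.26, adjusted p = 0.0976). Nrg4, a neuregulin that binds ERBB4, rose from 87.0 ± 3.07 to 150.02 ± 3.81 (SD, n = 3 each; log2 fold change 0.78, edgeR adjusted p = 3.39e-05), a call lost with library size only (0.36, adjusted p = 0.0659). Lrig3, a relative of Lrig1, fell from 545 ± 43.9 to 403 ± 43.0 (SD, n = 3 each; -0.44, edgeR adjusted p = 6.83e-05). Lrig2 had a log2 fold change of 0.19 (edgeR adjusted p = 0.178), and the fourth receptor Erbb4 had 0.22 (0.421). The neuregulins Nrg1, Nrg2 and Nrg3 had log2 fold changes of -0.21, 0.00 and -0.19, with edgeR adjusted p of 0.348, 0.992 and 0.689.

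Of 7 genes of ligand shedding, 4 were higher, 0 were lower and 3 did not pass by edgeR (28.2% of all genes and 60.5% of the abundant ones passed), with a median log2 fold change of 0.40. Adam12, a metalloprotease that releases HB-EGF, rose from a mean normalized count of 204 ± 3.19 to one of 415 ± 20.03 (SD, n = 3 each; log2 fold change 1.03, edgeR adjusted p = 3.82e-13). Timp3, which inhibits these proteases, rose as well (log2 fold change 0.59, edgeR adjusted p = 6.02e-11), and so did Adam17, the main sheddase of TGFα and amphiregulin (0.40, adjusted p = 9.10e-05), which was named after its value was seen. The members that rose thus include an inhibitor of shedding. With upper-quartile scaling 4 were higher and 2 lower, and with library size only 2 and 2. Adam12 and Timp3 are also made by fibroblasts, whose 9 markers were all higher, and the part of these cells in the result was not tested.

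Of 29 adaptors and kinases, 13 were higher, 6 were lower and 10 did not pass, a share near the 60.5% of abundant genes, with a median log2 fold change of 0.20. Pik3r1, the regulatory subunit of PI3-kinase, rose with a log2 fold change of 1.32 (edgeR adjusted p = 1.14e-25), while Pik3cb, a catalytic subunit, fell with -0.56 (adjusted p = 4.13e-06). Braf, the RAF kinase between RAS and MEK, had 1345, 1449 and 1285 normalized counts in the WT libraries and 463, 467 and 514 in the Dab2-cKO libraries. That was the largest fall of the list (log2 fold change -1.50, SE 0.08, edgeR adjusted p = 5.06e-27). With upper-quartile scaling 13 of the list were higher and 11 lower, and with library size only 5 and 16.

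Of 18 negative regulators, 3 were higher, 4 were lower and 11 did not pass, a share between the 28.2% of all genes and the 60.5% of abundant ones, with a median log2 fold change of 0.02. Errfi1, which encodes the EGFR inhibitor MIG6, had 499.9, 549 and 555 normalized counts in the WT libraries and 1343, 1291 and 1401 in the Dab2-cKO libraries. It rose by more than any other gene of the list (log2 fold change 1.33, SE 0.08, edgeR adjusted p = 8.43e-25), whereas the inhibitor Lrig1 fell. Spry2, a feedback inhibitor of RAS to ERK signaling, rose with 0.83 (edgeR adjusted p = 7.86e-06). Rnf41, the ubiquitin ligase NRDP1 that removes ERBB3, fell with -0.85 (edgeR adjusted p = 8.35e-12), as did the ERK phosphatase Dusp6 with -0.49 (adjusted p = 5.28e-05). With upper-quartile scaling 3 were higher and 7 lower, and with library size only 2 and 13.

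Of 11 ERK-responsive genes, 10 were tested, of which 2 were higher, 5 were lower and 3 did not pass, beside 60.5% of abundant genes that passed, with a median log2 fold change of -0.26. Etv4, an ETS factor, fell from 194 ± 12.1 to 58.5 ± 15.4 normalized counts (SD, n = 3 each; log2 fold change -1.71, edgeR adjusted p = 5.05e-14), and the receptor Epha2 fell from 633 ± 25.1 to 257 ± 10.6 (-1.30, adjusted p = 6.04e-20). Fos rose from 333 ± 26.8 to 2427 ± 43.6 (SD, n = 3 each; log2 fold change 2.87, edgeR adjusted p = 3.74e-43), and Egr1 rose with 0.64 (adjusted p = 2.90e-11). Fos and Egr1 are also on the list of 12 genes induced by tissue dissociation, of which 11 were higher (summed normalized count 4047 to 4565 in WT and 12639 to 12707 in Dab2-cKO). The part of dissociation in these changes was not tested.

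**Figure D5:**
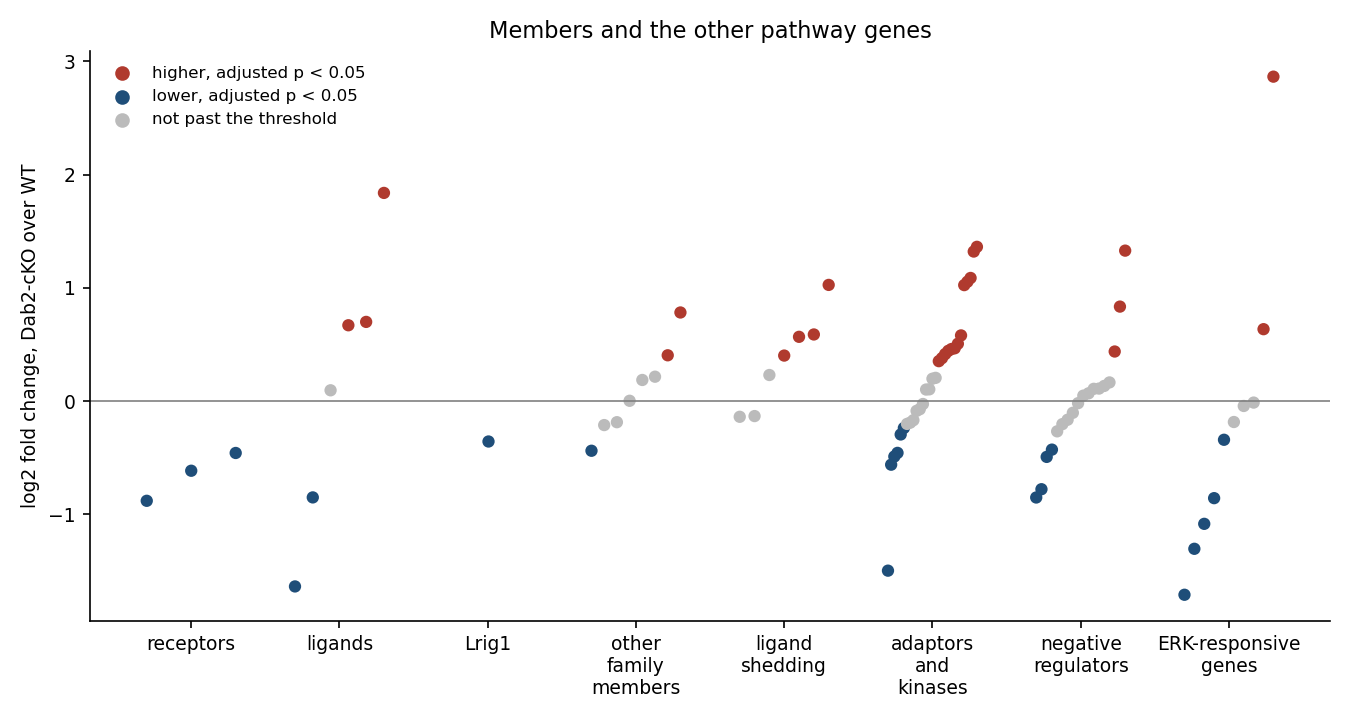
Fitted log2 fold change, Dab2-cKO against WT (y axis), of the receptors, the ligands, Lrig1 and the tested genes of 5 further lists (x axis). Each point is a gene, red where higher and blue where lower at an adjusted p under 0.05 and grey otherwise; the receptors and Lrig1 lie below 0, the called genes of ligand shedding lie above it, and each of the other lists has called genes on both sides.

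Markers of the epithelial compartments moved with the genotypes as well, and their part in the changes of the ErbB genes was not tested. The 7 basal keratinocyte markers, whose cells are a main site of Egfr, were 6 higher and 1 lower, with a summed normalized count of 23199 to 26091 in WT and 41110 to 41994 in Dab2-cKO. The part of basal keratinocytes in the fall of Egfr was not tested. Of 11 hair germ markers 10 were lower and 0 higher (6158 to 7313 and 1610 to 1749), and all 12 proliferation markers were lower (10890 to 11925 and 3288 to 3382). Of 12 bulge markers 6 were higher and 4 lower (9435 to 10810 and 14364 to 14649). Of 11 tested markers of isthmus and infundibulum, the region that Lrig1 marks, 7 were higher and 4 lower. Lgr6 had a log2 fold change of 0.49 and Plet1 had one of -0.89. The 12 markers of this list, tested or not, summed to 17267 to 19909 in WT and to 29638 to 30884 in Dab2-cKO. Of 12 markers of differentiated epidermis, 8 were higher and 2 lower (23513 to 27366 and 68478 to 69598). All 8 endothelial markers (1539 to 1726 and 5416 to 5519) and 8 of 10 immune markers (1650.1 to 1715 and 6570.3 to 6885) were higher. With library size only, the split became 4 higher and 5 lower for the bulge, 4 and 4 for isthmus and infundibulum, and 8 and 4 for differentiated epidermis.

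The genes most like Egfr and Lrig1 across the libraries were found by the root mean square difference of their centred log2 normalized counts over the 6 libraries, among 10846 genes. Nearest to Egfr were Cdk4, a cell cycle kinase (difference 0.0435), the mitotic gene Spdl1 (0.0450) and the vesicle GTPase Rab25 (0.0476). Cdk4 had a mean normalized count of 562 in WT and 306 in Dab2-cKO. Nearest to Lrig1 were the chaperone Hsph1 (0.0277), Prickle3 (0.0292) and Pum3 (0.0293), and Hsph1 had a mean of 646 and 499.8. With 6 libraries in 2 groups, a gene with the same ratio between the genotypes ranks near by construction, and nothing is read from it about function.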

How the data were processed

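Total RNA of cells sorted by FACS as HFSCs (5 ng per library) was sequenced by the authors with a stranded low-input kit. The authors trimmed the reads with fastp 0.23.4, aligned them to GRCm39 with HISAT2 2.2.1 and counted them per gene with featureCounts 2.0.6, and they deposited these counts without normalization. The strand setting, the use of molecular identifiers and the annotation release are not given in the sources used here. A second deposited table holds the authors' own DESeq2 comparison and was not used. The headings of the count table read WT and FL-FL, and FL-FL was taken as Dab2-cKO because the series title equates them. Every direction rests on this, and 0 sample columns were left unmapped. Of the rows, 6770 carry no gene name and were kept by their identifiers.

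Counts were compared over the whole table in R 4.3.3 with edgeR 4.0.16 (default expression filter, TMM, robust quasi-likelihood test, Benjamini-Hochberg adjustment over 32149 genes, threshold 0.05). This procedure was tested on simulated counts with 200 changed genes, equally many up and down. The simulation therefore did not probe the scaling between the genotypes. To normalize, each count was divided by its library's effective size relative to the mean of these sizes. TMM factors were 1.11 to 1.21 in WT and 0.847 to 0.876 in Dab2-cKO, mitochondrial genes took 13.0% to 14.4% and 19.1% to 20.3% of counts, and no library was left out. Replicates differed beyond sampling noise (chi-square per degree of freedom 3.54 to 11.7). Exon lengths, positions and overlaps came from GENCODE for GRCm39. The alternatives were DESeq2 1.42.0, upper-quartile scaling, library size only, TMM without mitochondrial and the 100 most abundant genes, a filter at a mean count of 50 or none, each library left out, a replicate block and a fold change above 1.5. For the shares they were no division by length, subtraction of an even background and, added after seeing the data, the length of the canonical transcript.

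The 10 genes and the gene lists were chosen with earlier results of these data known. Named were all 10 genes, all other family members, the 2 largest rises and falls of each further list (called genes whose mean normalized count reached 100), and the 3 genes nearest to Egfr and to Lrig1. A gene that the rule names is not reported here. P-values measure the spread between libraries, which is biological as far as the labels say.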

Additional observations from a re-analysis of the deposited data

How the results depend on the processing

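Of 130 log2 fold changes of the 10 genes under 13 alternatives each (the 1.5-fold limit aside), 124 kept their direction and their side of the threshold, 2 lost their call and 4 turned. With library size only, Ereg (0.24) and Btc (0.27) were no longer called, so that 1 of the 10 genes was higher. The log2 fold change of Hbegf, called under none of them, was -0.046 under upper-quartile scaling and -0.33 with library size only, and it ranged from -0.083 without Dab2-cKO replicate 1 (-0.001 without Dab2-cKO replicate 3) to 0.27 with other libraries left out. Among other family members, library size only gave -0.21 for Erbb4, -0.025 for Egf and -0.24 for Lrig2, and the call of Nrg4 was lost (0.36). Nrg2, at 0.003, became -0.14 under upper-quartile scaling, -0.42 by library size, -0.0031 with TMM without abundant genes, -0.030 without the filter and -0.082 at a mean count of 50 or more, and ranged from -0.087 to 0.073 with each library left out. The cause of these turns was not tested, beyond the shift of the median of all genes to -0.17 with upper-quartile scaling and -0.45 with library size only.

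Over all genes, 9069 were called (5387 higher, 3682 lower). Upper-quartile scaling called 4281 higher and 5561 lower, library size only 13854 (2686 and 11168), and the 1.5-fold limit 6037, of which 2313 lower. That limit left 7 of the 10 genes (4 lower), 1 other family member, 2 shedding genes, 6 adaptors and kinases and 4 negative regulators called, and library size only called 15 negative regulators. Each library left out in turn gave 7996 to 8546 calls. The labels give no pairing of replicates beyond the number. Deviations of same-numbered libraries correlated at 0.07, -0.01 and 0.06 over 14798 genes, and those of differently numbered libraries at -0.10 to 0.05. A weak pairing is therefore not excluded, and the replicate block called 8967 genes and 9 of the 10.

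Shares moved with the length used. Without division by exon length they were, in WT and Dab2-cKO, 42.7% and 14.2% for Tgfa, 4.59% and 17.0% for Epgn, 11.4% and 6.62% for Areg, and 49.8% and 43.9% for Egfr among the receptors. With the canonical transcript they were 26.4% and 8.01% for Tgfa, 27.1% for Areg and 35.0% for Egfr in WT, and 25.8% for Epgn in Dab2-cKO. Subtracting an even background gave 24.04% and 5.63% for Tgfa and 36.9% for Areg in WT. Depth limits the ligands most, with 32.5 to 254 normalized counts per library outside Tgfa.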
